A study of Mus musculus with 6 samples.

Results

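Smooth muscle actins and contractile genes were followed in reprogramming mouse embryonic fibroblasts (MEFs) with and without activated AKT. The set was chosen by gene symbol, with earlier results of these data known, so it was not picked blind to them. It holds 10 genes, *Acta1*, *Acta2*, *Actg2*, *Tagln*, *Myl9*, *Cnn1*, *Cald1*, *Lmod1*, *Tpm1* and *Tpm2*, and all 10 were found among the 54331 genes listed. The MEFs came from male E13.5 embryos of the Oct4-EGFP transgenic line, on a mixed C57BL/6, DBA/2 and ICR background, and several embryos were mixed. Retroviruses carried Oct4, Sox2, Klf4 and AKT-MER, a myristoylated AKT joined to a modified estrogen receptor, into the cells of both groups. The OSKA + 4OHT group then received 4-hydroxytamoxifen (4OHT), the ligand that switches AKT-MER on, and the OSKA − 4OHT group received ethanol as the vehicle. PolyA RNA was sequenced at 10 dpi from 3 wells per group, 6 libraries in all. The wells were replated from transduced cultures and no sorting or cloning is stated, so each may hold cells at different stages. No separate transduction for each well is described. The p-values and standard deviations thus measure the spread between wells and may leave out that between transductions or embryo pools. Both groups carried AKT-MER, so in these libraries an effect of 4OHT that does not pass through AKT-MER cannot be told apart from one that does. For cells without AKT-MER, the paper describes only limited effects of 4OHT on iPSC induction and, by microarray, on gene expression.

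Smooth muscle cells contract when myosin, phosphorylated on its regulatory light chain, pulls on filaments of smooth muscle α- and γ-actin, while tropomyosin, caldesmon and calponin lie along the actin filament and restrain or tune that pull. Fibroblasts grown on plastic switch on many of the same genes, and a fibroblast that carries smooth muscle α-actin in its stress fibers is called a myofibroblast. The genes of this programme commonly carry CArG boxes, the DNA motif bound by serum response factor (SRF) with its partners of the myocardin family, and MCAT motifs, which TEAD factors bind.

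All 10 genes had a log2 fold change below 0, as had 40.7% of the 15382 genes tested, and for each of the 10 every OSKA + 4OHT well lay below every OSKA − 4OHT well. Such a separation downward was seen for 10.0% of the genes tested. By limma-trend with Benjamini-Hochberg adjustment over those genes, 7 of the 10 fell at an adjusted p-value under 0.05, where the background was 1.97% of all genes tested. The 7 were *Acta1*, *Acta2*, *Actg2*, *Tagln*, *Myl9*, *Cnn1* and *Tpm1*, and *Cald1*, *Lmod1* and *Tpm2* did not pass. With 1 library left out the count was 4 when replicate 1 or 2 of either group was dropped, 8 when replicate 3 of OSKA − 4OHT was dropped and 6 when replicate 3 of OSKA + 4OHT was, and in these fits 63 to 147 of all genes fell instead of 303. A fit with the replicate number as a block gave a count of 3 (*Acta2*, *Tagln* and *Myl9*), and 16 of all genes fell. The median log2 fold change of the 10 genes was -2.16, beside 0.14 for all genes tested. Values are TPM, a unit in which each library has the same total and which is corrected for transcript length, and fold changes are differences of log2(TPM + 0.5), OSKA + 4OHT over OSKA − 4OHT. In TPM the 10 genes added up to 2902, 2662 and 2068 in OSKA − 4OHT replicates 1, 2 and 3, and to 666, 754 and 712 in the OSKA + 4OHT replicates. Their mean share of all TPM was thus 0.254% ± 0.0430 (SD, n = 3) without 4OHT and 0.0711% ± 0.00436 (SD, n = 3) with it. In a culture of mixed cells, fewer cells of a type and less RNA per cell cannot be told apart.

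**Figure D1:**
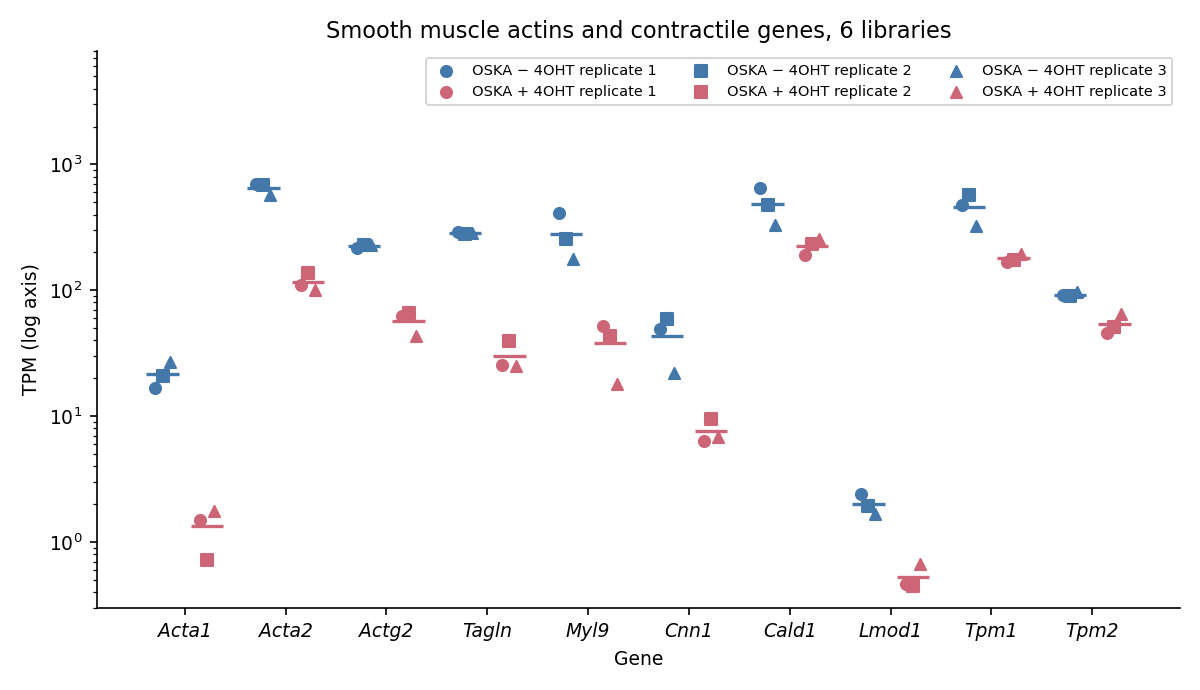
TPM on a log axis of the 10 genes in each of the 6 libraries, with OSKA − 4OHT in blue, OSKA + 4OHT in red, a symbol for each replicate and a line at each group mean. In every gene the 3 red points lie under the 3 blue points, and the ratio of the group means is largest for *Acta1*, *Tagln* and *Myl9*.

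The order of the genes by mean level also differed between the groups. *Acta2* was the highest of the 10 without 4OHT (652 TPM), followed by *Cald1* (484), *Tpm1* (457), *Tagln* (287), *Myl9* (280), *Actg2* (225), *Tpm2* (92.3), *Cnn1* (43.3), *Acta1* (21.5) and *Lmod1* (2.00). The wells of *Acta2*, *Cald1* and *Tpm1* overlapped one another, those of *Myl9* overlapped *Cald1*, *Tpm1*, *Tagln* and *Actg2*, and those of *Cnn1* overlapped *Acta1*. With 4OHT, *Cald1* (227 TPM) and *Tpm1* (179) stood above *Acta2* (116), and *Tagln* (30.0) had moved below *Actg2* (57.5), *Tpm2* (54.2) and *Myl9* (37.9), although the wells of *Tagln* and *Myl9* overlapped. So did those of *Cald1* and *Tpm1*, and those of *Actg2*, *Tpm2* and *Myl9* with one another. *Cnn1* (7.57), *Acta1* (1.33) and *Lmod1* (0.526) were the 3 lowest in both groups.

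The actins of the set are the thin filament proteins of muscle, which differ from the cytoplasmic actins at few residues. *Acta2* on chr19:34241090-34255590 (GRCm38, as all positions here) encodes smooth muscle α-actin, the usual mark of a myofibroblast. It was at 703, 685 and 568 TPM in the OSKA − 4OHT wells and at 111, 136 and 101 TPM in the OSKA + 4OHT wells. The groups were far apart, and the mean was 652 ± 73.2 TPM against 116 ± 18.2 TPM (SD, n = 3 each), a ratio of 5.62. The log2 fold change was -2.49 (SE 0.156, 95% interval -2.87 to -2.11), with an adjusted p-value of 0.00328 by limma-trend with Benjamini-Hochberg adjustment. *Actg2* on chr6:83512905-83536265 encodes the γ-actin of visceral smooth muscle. Its levels were 216, 228 and 230 TPM without 4OHT and 62.5, 66.4 and 43.7 TPM with it. The OSKA − 4OHT wells were almost level, their highest being 1.07 times their lowest, and the log2 fold change was -1.98 (SE 0.184, limma-trend adjusted p = 0.00485). Within a library, log2 of *Acta2* over *Actg2* was 1.53 ± 0.206 (SD, n = 3) without 4OHT and 1.02 ± 0.187 (SD, n = 3) with it, and these ranges did not overlap.

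*Acta1* on chr8:123891769-123894751 encodes the skeletal muscle α-actin and had the lowest fitted log2 fold change of the set, although *Tagln* was lower with a pseudocount of 2 (-3.20 against -2.81) and without OSKA + 4OHT replicate 2 (-3.48 against -3.34). It was at 16.6, 20.9 and 27.0 TPM in the OSKA − 4OHT wells and at 1.50, 0.725 and 1.76 TPM in the OSKA + 4OHT wells. The log2 fold change was -3.61 (SE 0.337, limma-trend adjusted p = 0.00485), the 25th lowest of all genes tested. TPM keeps no depth, so the number of reads behind these low values is unknown. Of the 50-base windows of the *Acta1* transcript, 2.22% also occur in transcripts of other genes, *Actb* among them, against 0.352% for *Acta2* and 0% for the other 8 genes.

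The promoter of *Acta1* is printed because it holds more CArG boxes than any other promoter of the set that could be searched. The RefSeq sequence (GRCm38.p6) covers the 250 bases before the transcript start, chr8:123894776-123895025 on the minus strand, and capitals mark the CArG boxes and, nearest the start, the MCAT motif.

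Acta1: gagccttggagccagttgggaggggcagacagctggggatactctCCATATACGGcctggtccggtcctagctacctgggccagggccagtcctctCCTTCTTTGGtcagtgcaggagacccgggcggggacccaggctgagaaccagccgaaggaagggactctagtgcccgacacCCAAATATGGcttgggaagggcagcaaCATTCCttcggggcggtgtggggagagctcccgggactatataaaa

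The box nearest the start, at -73 to -64, has only A and T in its core, while those at -205 to -196 and -154 to -145 have 1 other base there. CATTCC lies at -46 to -41. The *Acta2* promoter has 2 boxes with 1 other base in the core, each shown with 10 bases on both sides, from chr19:34255438-34255467 and chr19:34255388-34255417 on the minus strand, box in capitals.

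Acta2 box at -84 to -75: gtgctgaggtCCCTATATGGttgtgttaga

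Acta2 box at -34 to -25: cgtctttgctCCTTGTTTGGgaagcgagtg

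*Tagln* on chr9:45929619-45936058 encodes transgelin or SM22α, a calponin-like protein that bundles actin. Its OSKA − 4OHT wells were the closest of any gene of the set, at 291, 282 and 287 TPM, and its OSKA + 4OHT wells were at 25.6, 39.5 and 24.9 TPM. The ratio of the means was 9.55 and the log2 fold change -3.27 (SE 0.201, 95% interval -3.75 to -2.78, limma-trend adjusted p = 0.00328), the 44th lowest of all genes tested. On the other strand lies *Gm48529*, which covers 44.5% of the 50-base windows of the *Tagln* transcript. *Gm48529* was at 2.18 to 6.53 TPM without 4OHT and 0.873 to 1.39 TPM with it, with a limma-trend adjusted p of 0.146. The library kit keeps the strand, but whether the counting used it is not given in the sources used here, and without strand reads of the 2 genes cannot be told apart. Log2 of *Acta2* over *Tagln* within a library was 1.18 ± 0.167 (SD, n = 3) without 4OHT and 1.95 ± 0.165 (SD, n = 3) with it, so *Tagln* was the lower of the pair by a wider margin in every OSKA + 4OHT well.

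*Myl9* on chr2:156775420-156781658 encodes a regulatory light chain of smooth muscle and nonmuscle myosin, the chain that myosin light chain kinase phosphorylates. Its wells were spread widely in both groups, at 411, 254 and 176 TPM without 4OHT and at 52.5, 43.1 and 18.0 TPM with it. The lowest OSKA − 4OHT well was still above the highest OSKA + 4OHT well. The log2 fold change was -2.92 (SE 0.475, limma-trend adjusted p = 0.0243). The adjusted p rose to between 0.0609 and 0.0811 when OSKA − 4OHT replicate 1 or 2 or OSKA + 4OHT replicate 1 or 2 was left out, in a range of 0.0170 to 0.0811 over 16 alternatives, and the direction was kept. Its promoter has 2 CArG boxes, from chr2:156775293-156775322 and chr2:156775355-156775384 on the plus strand, shown in the same way. The first has only A and T in its core and the second has 1 other base.

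Myl9 box at -161 to -152: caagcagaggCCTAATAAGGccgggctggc

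Myl9 box at -99 to -90: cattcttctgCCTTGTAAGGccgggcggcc

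*Cnn1* on chr9:22099216-22109630 encodes calponin 1, which binds actin and inhibits the myosin ATPase in smooth muscle. It was at 49.0, 58.9 and 22.1 TPM without 4OHT and at 6.34, 9.55 and 6.83 TPM with it. OSKA − 4OHT replicate 3 stood far below the other two wells of its group, and the log2 fold change was -2.35 (SE 0.394, limma-trend adjusted p = 0.0266). Leaving out that replicate gave -2.77 and a limma-trend adjusted p of 0.0152. Leaving out any of the other 5 libraries raised the adjusted p to between 0.0768 and 0.102, the range over 16 alternatives being 0.0152 to 0.102.

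*Cald1* on chr6:34598500-34775473 encodes caldesmon, which binds actin, tropomyosin and myosin. Its values were 648, 472 and 332 TPM without 4OHT and 191, 233 and 256 TPM with it. The highest OSKA + 4OHT well was close to the lowest OSKA − 4OHT well. The log2 fold change was -1.05 (SE 0.257, 95% interval -1.67 to -0.43) and the limma-trend adjusted p 0.0709, so it did not pass the threshold. It passed only without OSKA − 4OHT replicate 3, at a limma-trend adjusted p of 0.0454, in a range of 0.0454 to 0.208 over 16 alternatives. *Lmod1* on chr1:135324807-135368065 encodes leiomodin 1, which nucleates actin filaments in smooth muscle. It was the lowest of the set, at 2.40, 1.92 and 1.68 TPM against 0.465, 0.450 and 0.664 TPM. Its log2 fold change of -1.28 (SE 0.488, limma-trend adjusted p = 0.202) did not pass in the fit reported, and it passed only where the variance was fitted without a trend on the level (adjusted p = 0.0302, in a range of 0.0302 to 0.391 over 15 alternatives).

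Tropomyosins are coiled coils that run along the actin filament, and *Tpm1* and *Tpm2* make muscle and cytoplasmic forms from the same gene by splicing. *Tpm1* on chr9:67022590-67049406 was at 474, 569 and 327 TPM without 4OHT and at 169, 173 and 195 TPM with it. The OSKA + 4OHT wells were nearly level, and the log2 fold change was -1.31 (SE 0.212, limma-trend adjusted p = 0.0237). As for *Cnn1*, OSKA − 4OHT replicate 3 was the lowest of its group. Leaving it out gave -1.54 and an adjusted p of 0.0152, and leaving out any other library gave 0.0629 to 0.0951, in a range of 0.0152 to 0.105 over 16 alternatives of limma-trend. *Tpm2* on chr4:43514711-43523765 had the smallest difference of the set. It was at 91.3, 89.4 and 96.3 TPM without 4OHT and at 46.1, 51.5 and 65.1 TPM with it. The log2 fold change was -0.78 (SE 0.166, 95% interval -1.18 to -0.38), with a limma-trend adjusted p of 0.0508, and it passed in 5 of the 16 alternatives, among them the fit without OSKA + 4OHT replicate 3 (adjusted p = 0.0438, in a range of 0.0419 to 0.164). The values are per gene, and 21 transcripts of *Tpm1*, 18 of *Cald1* and 6 of *Tpm2* are annotated, so muscle and cytoplasmic splice forms cannot be told apart here.

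The spread among wells of the OSKA − 4OHT group ranged from a few percent to more than 2-fold. The highest well was 1.03 times the lowest for *Tagln*, 1.07 times for *Actg2*, 1.08 times for *Tpm2* and 1.24 times for *Acta2*. It was 1.74 times the lowest for *Tpm1*, 1.95 times for *Cald1*, 2.34 times for *Myl9* and 2.66 times for *Cnn1*. OSKA − 4OHT replicate 3 was the lowest well of its group for 6 of the 10 genes and the highest for *Acta1*, *Actg2* and *Tpm2*. *Acta1*, *Acta2*, *Actg2* and *Tagln* passed in all 6 fits that left out 1 library, with adjusted p-values of at most 0.0303 by limma-trend. Of these, *Acta1* and *Actg2* did not pass with the replicate number as a block (limma-trend adjusted p = 0.0555 and 0.0574).

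**Figure D2:**
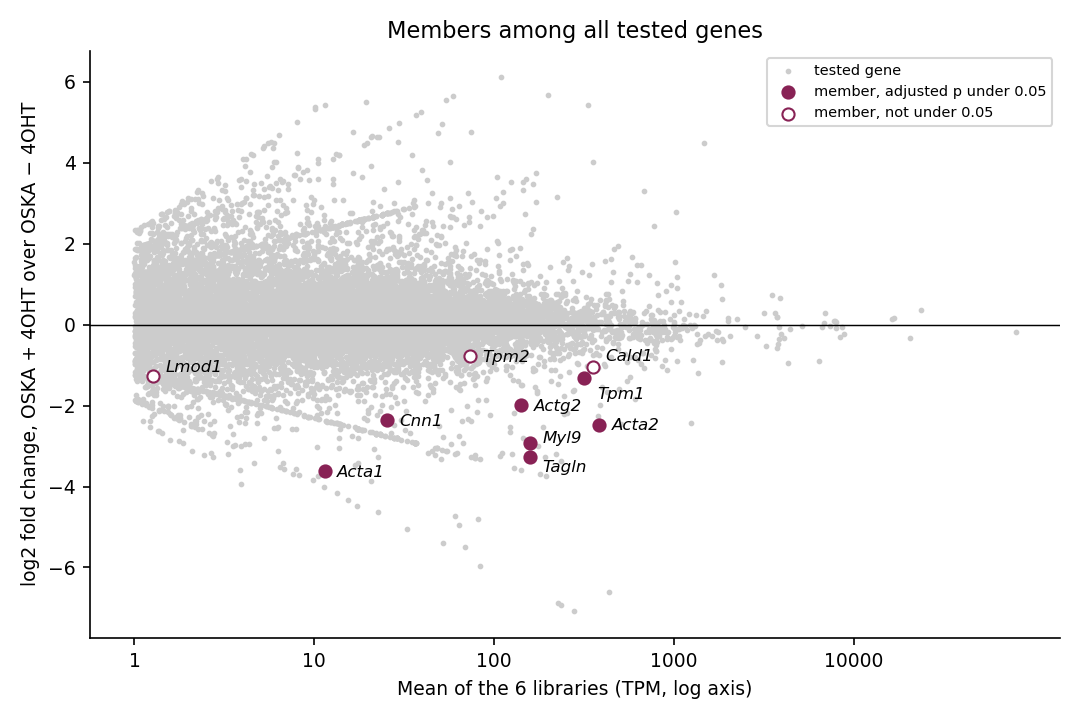
Log2 fold change of OSKA + 4OHT over OSKA − 4OHT against the mean TPM of the 6 libraries on a log axis, for the 15382 genes tested (grey) and the 10 genes of the set, filled where the adjusted p-value by limma-trend was under 0.05 and open otherwise. All 10 lie below 0, and *Acta1* and *Tagln* lie lowest.

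Each family of the set also has members of wide expression, and these did not move as a block. Among the actins, *Actb*, which encodes cytoplasmic β-actin, was at 8769, 6158 and 4014 TPM without 4OHT and at 6293, 6404 and 9910 TPM with it, and the groups overlapped (log2 fold change 0.29, limma-trend adjusted p = 0.628). *Actg1*, which encodes cytoplasmic γ-actin, was at 2253 ± 128 TPM and 1864 ± 332 TPM (SD, n = 3 each, limma-trend adjusted p = 0.313). The summed TPM of the actin family was 9466 ± 2476 without 4OHT and 9575 ± 1749 with it. The part of that sum from *Acta1*, *Acta2* and *Actg2* together was 7.84%, 9.85% and 11.8% in the OSKA − 4OHT wells and 2.10%, 2.31% and 1.26% in the OSKA + 4OHT wells. Log2 of *Acta2* over *Actg1* was -1.91 to -1.66 without 4OHT and -4.08 to -3.91 with it. Log2 of *Acta2* over *Actb* was -3.21 ± 0.412 and -5.99 ± 0.552 (SD, n = 3 each), with a wider spread in both groups.

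Of the families compared, the transgelins had the largest difference in share. *Tagln* made up 49.7%, 50.9% and 51.7% of the summed TPM of *Tagln*, *Tagln2* and *Tagln3* in the OSKA − 4OHT wells and 5.51%, 9.12% and 5.76% in the OSKA + 4OHT wells. *Tagln2*, the widely expressed relative, was at 292, 271 and 267 TPM without 4OHT and at 428, 382 and 399 TPM with it. It rose by limma-trend (log2 fold change 0.54, adjusted p = 0.0368), a call that was lost in all 6 fits with 1 library left out (adjusted p 0.0717 to 0.135) and with trimmed mean scaling (0.40, adjusted p = 0.0924). *Tagln3*, the neuronal relative, went up from 1.43 ± 0.667 TPM to 10.6 ± 1.42 TPM (n = 3 each, SD), a log2 fold change of 2.58 (limma-trend adjusted p = 0.0143), and it kept its call in 3 of those 6 fits. Log2 of *Tagln* over *Tagln2* was 0.050 ± 0.0550 without 4OHT and -3.76 ± 0.434 with it (SD, n = 3 each).

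Among the relatives of the calponins, light chains and tropomyosins named here, 2 fell. *Cnn2*, a calponin of many cell types, fell from 169 ± 6.89 TPM to 81.1 ± 2.38 TPM (n = 3 each, SD), with a log2 fold change of -1.05 (limma-trend adjusted p = 0.00685), and *Cnn3* had a log2 fold change of -0.35 (adjusted p = 0.305). The share of *Cnn1* in the calponins was 6.09% ± 1.95 without 4OHT and 1.66% ± 0.445 with it. *Myl12a*, a light chain of nonmuscle myosin, fell from 815 ± 39.8 TPM to 506 ± 54.9 TPM (n = 3 each, SD), with a log2 fold change of -0.69 (limma-trend adjusted p = 0.0235), a call kept in 1 of the 6 fits with 1 library left out, while *Myl12b* had a log2 fold change of 0.31 (adjusted p = 0.223). A second Ensembl gene named *Myl12b* was at 173 TPM in OSKA − 4OHT replicate 1 and listed at 0 in the other wells, and the sum of both was 261 ± 122 TPM without 4OHT and 252 ± 15.8 TPM with it (SD, n = 3 each), so no direction is given for *Myl12b*. *Myl9* made up 28.7%, 19.5% and 15.1% of the 3 light chains in the OSKA − 4OHT wells and 6.94%, 4.95% and 2.37% in the OSKA + 4OHT wells, and 25.6% in the first well if both *Myl12b* genes are counted. Of the tropomyosins, *Tpm4* had a log2 fold change of -0.41 (adjusted p = 0.0591) and *Tpm3* of 0.10 (adjusted p = 0.642), all by limma-trend. The share of *Tpm1* and *Tpm2* in the tropomyosins was 42.5%, 48.1% and 35.5% without 4OHT and 24.6%, 26.5% and 28.3% with it. None of the 5 family shares overlapped between the groups, and for each the exact 2-sided permutation p was 0.1, the smallest that 3 wells against 3 can give. The shares are made from the genes already seen to separate downward, so they are no separate evidence. Over the whole list of 27 relatives, 18 were tested, 2 fell and 2 rose, with a median log2 fold change of 0.19, where 1.97% of all genes tested fell and 3.52% rose.

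**Figure D3:**
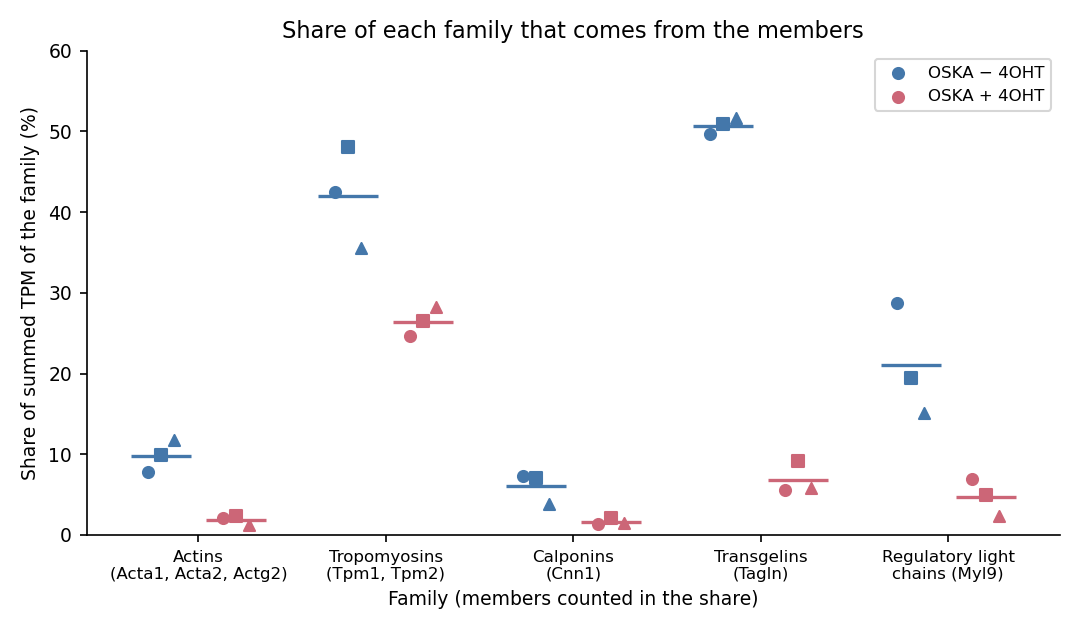
Share, in percent of the summed TPM of each family, that comes from the genes of the set, for the 3 OSKA − 4OHT wells (blue) and the 3 OSKA + 4OHT wells (red), with circles, squares and triangles for replicates 1, 2 and 3 and a line at each mean. The red points lie under the blue points in all 5 families, and the transgelins drop most, from a mean of 50.7% to 6.80%.

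**Figure D4:**
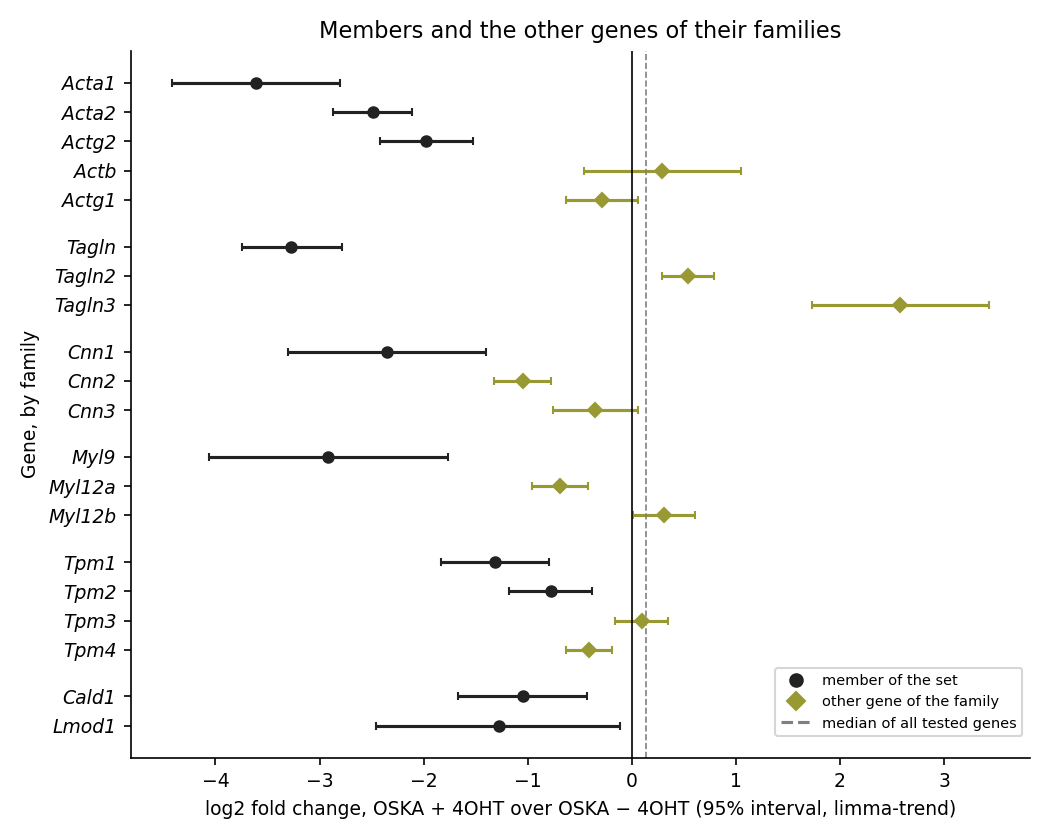
Log2 fold change with its 95% interval by limma-trend for the genes of the set (black circles) and other tested genes of their families (olive diamonds), with the median of all tested genes as a dashed line at 0.14. *Tagln3* and *Tagln2* lie to the right of 0 where *Tagln* is at -3.27, and *Cnn2* lies to the left of 0 with *Cnn1*.

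Of 34 further genes of the contractile and adhesion machinery, such as nonmuscle myosins, filamins and focal adhesion proteins, 33 were tested, 9 fell and 0 rose by limma-trend, beside 1.97% and 3.52% of all genes tested, with a median log2 fold change of -0.32. At an unadjusted p under 0.05, 16 were lower and 0 higher, where 7.18% of all genes tested were lower and 14.1% higher. At most 5 and at least 1 of the 33 fell when any 1 library was left out. The largest fall among the 9 was that of *Zyx*, which encodes the focal adhesion protein zyxin, from 333 ± 59.1 TPM to 119 ± 7.52 TPM (n = 3 each, SD), with a log2 fold change of -1.47 (limma-trend adjusted p = 0.00685). It held in all 6 fits with 1 library left out. The smooth muscle myosin *Myh11*, which is also in this list, had a log2 fold change of -1.49 and did not pass (limma-trend adjusted p = 0.230).

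The regulators of the programme were read in the same way. Of 22 genes for SRF, its partners, TEAD factors with *Yap1* and *Wwtr1*, TGFβ signalling and *Klf4*, 21 were tested, 1 fell and 0 rose by limma-trend, beside 1.97% and 3.52% of all genes tested, with a median log2 fold change of -0.085. At an unadjusted p under 0.05, 6 were lower and 0 higher, beside 7.18% and 14.1% of all genes tested. The wells of 6 did not overlap between the groups, with the OSKA + 4OHT wells lower, as in 10.0% of all genes tested. Those of 0 lay higher without overlap, beside 18.1%. Besides *Tead1* the lower ones were *Tgfb1* (log2 fold change -1.32), *Fhl2* (-1.17), *Elk4* (-0.96), *Tgfb3* (-0.65) and *Wwtr1* (-0.57). None of these others passed (limma-trend adjusted p 0.0632 to 0.230). *Tead1* was the gene that fell, from 63.6 ± 3.03 TPM to 36.2 ± 3.01 TPM (n = 3 each, SD), with a log2 fold change of -0.81 (limma-trend adjusted p = 0.0290), and the call was lost in all 6 fits with 1 library left out (adjusted p 0.0663 to 0.101). *Srf* was at 34.7, 14.3 and 12.8 TPM without 4OHT and at 19.0, 24.9 and 33.8 TPM with it, so the groups overlapped (limma-trend adjusted p = 0.601). *Mrtfa* (15.0 ± 2.46 and 12.2 ± 6.57 TPM, adjusted p = 0.589) and *Mrtfb* (6.76 ± 0.741 and 7.59 ± 2.49 TPM, adjusted p = 0.869), the SRF partners of most cells, did not pass either (SD, n = 3 each, limma-trend). *Klf4* was also one of the transduced factors, and in its TPM (402 to 573 over the 6 wells) RNA of the retrovirus cannot be told apart from that of the gene. *Myocd*, which encodes myocardin, the SRF partner of smooth and cardiac muscle, was listed at 0 in 4 of the 6 wells and at no more than 0.389 TPM in the others. RNA levels of these factors do not measure their activity.

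Promoters in RefSeq (GRCm38.p6) were searched for the motifs of these factors in the 250 bases before the start. The table held 8 of the 10 genes, all but *Actg2* and *Tagln*, with 9 promoters. A CArG box with at most 1 base other than A or T among the 6 of its core was found for 3 genes, *Acta1*, *Acta2* and *Myl9*, whereas 8.59% of 32851 promoters of all genes held one. With only A and T in the core it was found for 2, *Acta1* and *Myl9*, and in 1.47% of all promoters. The form of the box is the same on both strands. The MCAT motif CATTCC, on either strand, was found for 5 genes, *Acta1*, *Acta2*, *Cald1*, *Lmod1* and *Tpm1*, and in 12.6% of all promoters, and it did not overlap a CArG box in any of them. *Cnn1* and *Tpm2* had neither motif in this window, which says nothing about sites elsewhere.

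**Figure D5:**
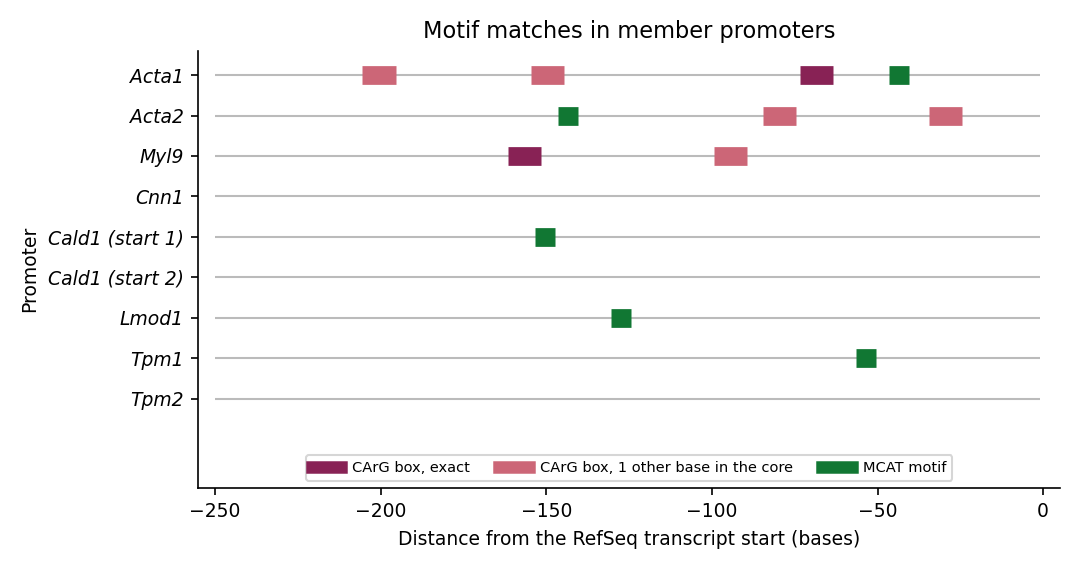
Positions of CArG boxes and of the MCAT motif CATTCC, in bases from the RefSeq transcript start, in the 9 promoters of 8 genes of the set. *Acta1* holds 3 boxes and 1 MCAT motif, *Acta2* 2 boxes and 1 MCAT motif, and *Myl9* 2 boxes.

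Markers of the cells in which these genes are usually high were read beside the set, and their counts stand beside the 1.97% of all genes tested that fell and the 3.52% that rose. Of 15 genes of mature smooth muscle, 10 were tested and 1 fell, *Nexn*, which encodes the filament protein nexilin, from 13.1 ± 0.204 TPM to 1.97 ± 1.12 TPM (n = 3 each, SD, limma-trend adjusted p = 0.0254, called in 1 of 6 fits with 1 library left out). Over the 10 tested, the median log2 fold change was -1.07. The wells of 5 lay lower with 4OHT without overlap, as in 10.0% of all genes tested. By limma-trend at an unadjusted p under 0.05, 4 were lower and 0 higher, beside 7.18% and 14.1% of all genes tested. The summed TPM of this list was 52.9 to 79.8 without 4OHT and 36.6 to 46.7 with it. Of its defining markers, *Myh11*, the smooth muscle myosin, was at 1.20 to 3.75 TPM without 4OHT and 0.234 to 1.07 TPM with it, *Smtn* was at 6.31 to 8.89 and 7.27 to 11.2 TPM, and *Kcnmb1* was at or below 0.399 TPM in every well. Other genes of the list were present without 4OHT, *Hspb6* at 11.7 to 16.5 TPM, *Mustn1* at 6.18 to 9.17 TPM and *Des* at 0.651 to 10.4 TPM. With 4OHT these 3 were at 14.8 to 17.9, 2.11 to 4.90 and 0.529 to 0.820 TPM, in that order.

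Of 28 genes of striated muscle, 10 were tested and 2 rose, *Myh1* and *Myh2*, and the summed TPM was 42.5 to 105 without 4OHT and 94.5 to 109 with it. *Myod1* and *Myog* were listed at 0 in all 6 wells, and *Ckm*, *Tnnt3* and *Ttn* were at or below 0.655 TPM in every well, so these defining markers of skeletal muscle were at or near 0 where *Acta1* was read. Other genes of the list were present, with *Myh2* at up to 12.5 TPM without 4OHT and 31.2 to 35.5 TPM with it, *Myh1* at 2.18 to 2.54 and 10.6 to 16.4 TPM, and *Mylpf* at 2.48 to 70.0 and 15.9 to 30.0 TPM. The part of such RNA in *Acta1* was not tested. Of 10 mural cell genes, 7 were tested and 1 fell, *Pdgfrb*, while the sum was 108 to 115 TPM without 4OHT and 151 to 182 TPM with it. Without *Ndufa4l2*, a gene singled out after its values were seen (0 to 20.3 TPM without 4OHT and 90.5 to 101 TPM with it, limma-trend adjusted p = 0.0744), the sum was 89.3 to 113 TPM without 4OHT and 58.4 to 80.2 TPM with it. Of the defining mural markers, *Abcc9* was at or near 0 and *Rgs5* lay between 10.4 and 14.9 TPM in all 6 wells. *Cspg4* was at 40.6 to 57.5 TPM without 4OHT and 24.4 to 37.8 TPM with it. *Notch3* went the other way, at 1.71 to 2.52 and 2.61 to 3.42 TPM. Neither of these passed (limma-trend adjusted p = 0.185 for *Cspg4* and 0.492 for *Notch3*).

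Fibroblast and epithelial markers were read next. Of the defining fibroblast markers, *Col1a1* was at 751 to 1102 TPM without 4OHT and 548 to 643 TPM with it and did not pass (limma-trend adjusted p = 0.0843). *Col1a2* fell from 1480 to 1759 TPM without 4OHT to 733 to 1037 TPM with it (log2 fold change -0.88, limma-trend adjusted p = 0.0285, called in 1 of 6 fits with 1 library left out). Both were present in all 6 wells. Of the other collagen genes in the list, *Col3a1* was higher with 4OHT (885 to 1165 TPM) than without it (426 to 448 TPM). The log2 fold change of *Col3a1* was 1.23 (limma-trend adjusted p = 0.00582), called in 6 of 6 fits with 1 library left out. *Col5a1* was lower, with a log2 fold change of -0.58, and did not pass (limma-trend adjusted p = 0.0689). Of 18 fibroblast genes, 17 were tested, 4 fell and 2 rose by limma-trend, beside 1.97% and 3.52% of all genes tested, and their sum was 10617 to 12237 TPM without 4OHT and 7003 to 8338 TPM with it. The count of falls was 1 when replicate 1 or 2 of OSKA + 4OHT was left out and 2 when replicate 2 of OSKA − 4OHT was. The wells of 10 of the 17 lay lower with 4OHT without overlap and those of 4 higher, beside 10.0% and 18.1% of all genes tested. By limma-trend at an unadjusted p under 0.05, 9 were lower and 4 higher, beside 7.18% and 14.1%. *Loxl1*, a lysyl oxidase of elastic fibers, fell most (log2 fold change -1.41, called in 2 of 6 fits with 1 library left out) and *Lum*, which encodes the proteoglycan lumican, rose most (2.37). Of the other defining markers, neither *Pdgfra*, at 4.78 to 6.50 TPM over all 6 wells, nor *Prrx1*, with a log2 fold change of -0.39, passed. *Thy1*, the remaining defining marker, went the other way, at 198, 208 and 133 TPM without 4OHT and 222, 268 and 389 TPM with it. Its log2 fold change of 0.69 did not pass (limma-trend adjusted p = 0.203). Of 16 epithelial genes, 14 were tested and 3 rose, *Cdh1*, *Epcam* and *Krt8*, with sums of 67.2 to 177 TPM without 4OHT and 302 to 334 TPM with it. With 1 library left out, *Cdh1* was called in 6 of 6 fits, *Krt8* in 1 and *Epcam* in 0 (limma-trend adjusted p 0.0611 to 0.146). The wells of 8 of the 14 lay higher with 4OHT without overlap, as did those of 18.1% of all genes tested. The part of these differences in the lower levels of the smooth muscle genes was not tested. Of 12 leukocyte genes, all were tested and 1 fell, *Lyz2* (called in 1 of 6 fits with 1 library left out), with sums of 181 to 219 and 127 to 144 TPM. Its defining markers did not pass (limma-trend adjusted p 0.392 to 0.813). *Ptprc* lay between 0.435 and 1.67 TPM over the 6 wells. *Csf1r* was at 2.88 to 4.29 TPM without 4OHT and 0.935 to 2.71 TPM with it, and *Adgre1* at 1.93 to 18.7 and 1.72 to 8.45 TPM. Of 10 endothelial genes, 3 were tested and 0 passed by limma-trend (1 at an unadjusted p under 0.05), and *Cdh5* and *Kdr* were at or below 0.806 TPM in every well. Other genes of the list were present, *Pecam1* at 5.81 to 14.1 TPM over the 6 wells and *Tek* at 12.8 to 15.7 TPM without 4OHT and 21.2 to 23.2 TPM with it (limma-trend adjusted p = 0.102).

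The genes whose profile over the 6 libraries was most like the mean profile of the set were searched among the 8790 other genes that averaged 10 TPM or more. Likeness was the root mean square difference of centred log2(TPM + 0.5) values, and no test was made. The nearest were *Lox* (0.0883), *Tnfrsf11b* (0.106), *Ccn4* (0.143), *Inf2* (0.156) and *Igfbp7* (0.163). *Lox*, which encodes lysyl oxidase, the enzyme that crosslinks collagen and elastin, was at 704, 635 and 525 TPM without 4OHT and at 156, 152 and 158 TPM with it. *Tnfrsf11b*, which encodes osteoprotegerin, was at 163, 168 and 138 TPM and at 34.8, 35.5 and 28.2 TPM. For both, OSKA − 4OHT replicate 3 was the lowest well of its group, as it was in the mean profile by which they were picked.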

How the data were processed

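The 6 libraries are polyA RNA-seq libraries of reprogramming MEFs, 3 of OSKA − 4OHT and 3 of OSKA + 4OHT. The authors trimmed the reads and quantified them with Salmon, per the labels, and deposited TPM per gene and library, scaled so that each library adds up to 1000000. The annotation release, the versions and the strand setting are not given in the sources used here. The deposited table also holds the authors' own comparison of the groups (a log2 fold change, a log2 average level, an F statistic and an unadjusted p-value), which was not used.

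Genes were matched by Ensembl identifier to GENCODE M21 on GRCm38, which gave a symbol to 54097 of 54331. The gene names in the rule, the lists and the tests were chosen with earlier results of these data known. Differences were tested with limma-trend (limma 3.58.1, R 4.3.3) on log2(TPM + 0.5) over the 15382 genes averaging 1 TPM or more, with Benjamini-Hochberg adjustment, and calls were made below an adjusted p-value of 0.05. The test was checked on simulated data, where many changed genes were not called, so a gene that was not called is not shown to be unchanged. Fold changes on this scale are smaller than ratios of TPM for low genes. The genes named are the 10 of the set, tested relatives of their families, the largest rise and fall of each list, the defining markers, *Srf*, *Myocd*, *Mrtfa* and *Mrtfb*, and the 5 nearest profiles. *Gm48529*, further genes behind a count of 5 or fewer, the regulators whose wells did not overlap and other present genes of the marker lists were named after their values were seen.

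TPM keeps no depth. Steps of whole reads were looked for with Python 3.11.15 and pandas 2.3.3 in the 17139 single-transcript genes of over 600 bases, as TPM times transcript length less an assumed 250 bases. Only 37.5% to 41.8% of low values lay within 0.15 of a whole read, where evenly spread values give 30.0%, so no reads were recovered and the depth is unknown. In each library 15814 to 18230 genes were above 0. At a median over 20 TPM, 97 of 5708 genes were at 0 in 1 or more libraries, so a value of 0 is given as listed at 0. *Myl12b* has 2 Ensembl genes, and the one with more transcripts was used. Promoters came from RefSeq (GRCm38.p6). The 16 alternatives were 3 other pseudocounts, 2 other filters, 2 scalings, 2 variance models, the replicate number as a block and leaving out each of the 6 libraries.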

Additional observations from a re-analysis of the deposited data

How the results depend on the processing

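Under the 16 alternatives all log2 fold changes of the 10 genes that could be computed were below 0, and *Acta2* and *Tagln* passed in all 16. *Acta1* and *Actg2* passed in 15, their log2 fold changes ranging from -3.99 to -2.81 and from -2.12 to -1.79. Trimmed mean scaling and quantile normalization moved the median of all genes from 0.14 to 0.017 and -0.0047, and the share of calls that were lower from 35.9% to 51.8% and 50.3%, with 483 genes lower under the first instead of 303. *Tpm2* passed with a pseudocount of 0.1 or a filter of 5 TPM (-0.78 each), with trimmed mean scaling (-0.91) and with quantile normalization (-0.89). *Lmod1* could not be tested under the filter of 5 TPM. Without a variance trend *Lmod1* passed (-1.28) and *Tpm1* did not (-1.31).

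To look for pairs, each gene's group mean was taken off its log values, which left the departure of each well from its group. Across genes the departures of same-numbered wells correlated at 0.0235, 0.0341 and 0.0837, under 0.1, so the numbers were not read as pairs. These are not correlations of the levels themselves. By its departures each OSKA − 4OHT well correlated best with the OSKA + 4OHT well of its own number, as a hint from the data. Read from the other group, the departures of OSKA + 4OHT replicate 1 correlated better with those of OSKA − 4OHT replicate 2 (0.0327) than of replicate 1 (0.0235). With the replicate number as a block, 3 of the 10 genes passed (*Acta2*, *Tagln* and *Myl9*), with 16 genes lower and 31 higher in all instead of 303 and 542. The estimates of *Acta1* (-3.61), *Actg2* (-1.98), *Cnn1* (-2.35) and *Tpm1* (-1.31) were as before and did not pass. In the same fit 0 genes passed in any of the lists of relatives, machinery and markers.

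Leaving out 1 library gave 4 to 8 passing genes of the set, 63 to 147 genes lower and 112 to 318 higher. Log2 fold changes ranged from -3.22 to -2.46 for *Myl9*, -2.77 to -2.07 for *Cnn1*, -1.30 to -0.82 for *Cald1*, -1.54 to -1.14 for *Tpm1* and -0.91 to -0.67 for *Tpm2*. The set had 8 passing genes without OSKA − 4OHT replicate 3 and 4 without OSKA − 4OHT replicate 1 or 2 or OSKA + 4OHT replicate 1 or 2. Falls numbered 1 to 2 of the relatives, 1 to 5 of the machinery, 1 to 4 of the fibroblast genes, 0 to 1 of the mature smooth muscle, mural and leukocyte genes and 0 of the regulators. Rises numbered 0 to 1 of the relatives and mural genes, 1 to 3 of the striated muscle genes and 1 to 5 of the epithelial genes.

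Trimmed mean scaling and quantile normalization gave 12 and 10 falls in the machinery and 6 and 5 in the fibroblast genes, against 9 and 4. Without a variance trend 1 relative fell and 1 rose, 3 machinery genes, 2 fibroblast genes, 0 leukocyte genes and 0 regulators fell. Without a filter, or with trimmed mean scaling, 1 relative rose. Under both scalings 2 regulators fell, and with a pseudocount of 2, 1 mural gene rose. The cause of these shifts was not tested. The depth is unknown, which limits the low values of *Acta1* and *Lmod1* most.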
